A study of Mus musculus with 6 samples.

Results

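The phagocyte NADPH oxidase subunits measured here were Cybb, Cyba, Ncf1, Ncf4 and Rac2, 5 of the 18792 genes in a pooled single-cell RNA-seq table of mouse spinal cord. They were listed by name as subunits of 1 enzyme. The rule uses no measured value, but the list was drawn up with earlier results of these data known. All 5 had a row in the table and all are accounted for in each comparison.

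The phagocyte NADPH oxidase transfers electrons from NADPH across a membrane to oxygen, which gives superoxide, the precursor of other reactive oxygen species. Its membrane core is flavocytochrome b558, made of the catalytic subunit gp91phox (encoded by Cybb) and its stabilizing partner p22phox (Cyba). On activation, cytosolic subunits, among them p47phox (Ncf1) and p40phox (Ncf4), together with a Rac GTPase (Rac2 or Rac1), join the core. In the central nervous system, microglia and infiltrating macrophages are known for this enzyme, and gp91phox serves as a marker of oxidative stress in inflamed tissue.

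The cells came from the spinal cord of wild-type (WT) and Nd6 mice, the latter carrying ND6-P25L, a point mutation in the complex I gene mt-Nd6 of the mitochondrial genome. The labels list 1 library from healthy control (HC) WT mice, 1 from HC Nd6 mice, 2 from WT mice with experimental autoimmune encephalomyelitis (EAE) and 2 from Nd6 mice with EAE, a model of MS-like disease induced with a myelin oligodendrocyte glycoprotein peptide. By the methods of the study, EAE was induced in female mice of 8 to 20 weeks, its healthy controls were of both sexes, and mice of all groups were perfused with the transcription inhibitors actinomycin D and triptolide. The deposited table names each of its 13614 cells by a barcode and 1 of 6 numbers that nothing links to a library, so the cells counted as 1 pooled sample. Neither genotypes nor disease states could be set against each other, and no test gave a p-value.

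The cells that share a number are called sets here and are lettered A to F from the largest (4633 cells) to the smallest (809 cells). They show how far a value varies within the table and stand for no condition. The deposited values are whole numbers whose total per cell lies between 687 and 1578 (median 962), so they were taken as a score and the depth of a cell is unknown. A cell had a median of 547 genes with a value above 0, and 18 barcodes occurred in more than 1 set. The measure used below is the share of cells with a value above 0, given with its exact (Clopper-Pearson) 95% interval, or for a difference of shares with its Newcombe interval, both written as a range in parentheses. These intervals cover counting error only and not the spread between mice or libraries.

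Cells were gated on 11 lists of 8 lineage markers, none of which contains a subunit. A cell went to the lineage with most markers above 0 if at least 3 were. The myeloid gate (Csf1r, Ctss, C1qa, C1qb, C1qc, Tyrobp, Fcer1g and Aif1) took 12734 cells, or 93.5% of the table. The other lineages, neutrophils included, took 534 cells, among them 181 endothelial, 135 oligodendrocyte and 98 ependymal cells. The T cell or NK cell gate (39 cells), the pericyte or smooth muscle gate (34), the astrocyte gate (30) and the smaller ones held too few cells to be described, no cell was gated as a neuron, and 346 cells stayed ungated. The labelled tissue thus showed its glial and vascular cells but not its neurons.

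Myeloid cells were then split by 2 readings. Homeostatic-marked cells (1760) had at least 3 of 8 homeostatic microglia markers (P2ry12, Tmem119, Siglech, Gpr34, P2ry13, Sall1, Slc2a5 and Olfml3) and an Apoe value under 500 per 10000 of the cell total. Apoe-high cells (5721) had an Apoe value at or above it and fewer than 3 homeostatic markers. Another 337 cells met both conditions and 4916 met neither. Apoe encodes a lipid carrier that rises in disease-associated microglia. The split is a range and not a cell type: 1622 myeloid cells (12.7%) had an Apoe value between 400 and 600 per 10000, and 2064 had exactly 2 homeostatic markers.

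In the GENCODE vM21 annotation of GRCm38, the build the authors aligned to, Cybb lies at chrX:9435252-9487771 on the minus strand, Cyba at chr8:122424776-122432930 (minus), Ncf1 at chr5:134220053-134229625 (minus), Ncf4 at chr15:78244801-78262580 (plus) and Rac2 at chr15:78559167-78572783 (minus). All are protein-coding. Cyba overlaps Gm20388 and Ncf1 overlaps Gtf2ird2, each on the opposite strand. Both partners have rows of their own, with a value above 0 in 11.9% and 1.03% of myeloid cells, and the sources used here do not state how strand was counted, so reads shared with these partners leave Cyba and Ncf1 uncertain to that extent.

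The promoters of Cybb, Ncf1 and Cyba are shown because these subunits differed most in how they followed the myeloid split below: Cybb had a higher share in Apoe-high cells, Ncf1 a lower one, and Cyba a similar one. Each run is the 250 bases before the RefSeq transcription start (GRCm38.p6, minus strand, 5′ to 3′). Capitals mark each match, on either strand, to the motif TTTC, any 2 bases, TTTC, the core of sites bound by interferon regulatory factors.
Cybb, chrX:9469325-9469574: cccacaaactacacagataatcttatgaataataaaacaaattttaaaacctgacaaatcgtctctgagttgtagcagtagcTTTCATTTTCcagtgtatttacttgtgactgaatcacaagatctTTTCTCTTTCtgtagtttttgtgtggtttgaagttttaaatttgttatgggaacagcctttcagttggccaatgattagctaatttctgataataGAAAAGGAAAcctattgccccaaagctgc
Ncf1, chr5:134229626-134229875: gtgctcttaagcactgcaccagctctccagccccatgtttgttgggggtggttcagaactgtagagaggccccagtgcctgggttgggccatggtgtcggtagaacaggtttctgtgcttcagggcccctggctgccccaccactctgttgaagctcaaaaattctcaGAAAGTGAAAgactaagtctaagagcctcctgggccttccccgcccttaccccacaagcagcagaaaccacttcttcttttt
Cyba, chr8:122432941-122433190: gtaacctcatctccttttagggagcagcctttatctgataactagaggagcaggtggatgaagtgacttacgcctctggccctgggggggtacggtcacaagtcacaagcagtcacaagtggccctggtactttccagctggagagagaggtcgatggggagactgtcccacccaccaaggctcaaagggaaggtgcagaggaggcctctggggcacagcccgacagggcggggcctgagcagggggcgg

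The Cybb run held 3 matches, which began 168, 124 and 29 bases before the start, the Ncf1 run held 1 (82 bases before) and the Cyba run 0. Among 32851 promoters of the same length in that table, 2.98% held the motif at least once. A second motif was GAGGAA, a form of the site bound by the myeloid factor PU.1. It was found in none of the 3 runs on either strand and in 23.3% of all promoters. Other forms of this site were not searched for, so the runs are not shown to lack it. A match is a description of letters and not a bound site. The Cybb run also had the lowest GC content, 34%, against 54.4% for Ncf1 and 60% for Cyba. The RefSeq start of Cybb lies inside the longer GENCODE span given above. No promoter is shown for Ncf4 or Rac2.

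To see in which cells the enzyme's transcripts were found, the subunits were compared between lineage gates. All 5 were found in a larger share of myeloid cells than of the other gated cells. Of 4322 genes above 0 in at least 5% of either class, 10.8% were at least 2-fold higher in myeloid cells by mean deposited value and 34.5% at least 2-fold lower, with a median log2 ratio of -0.66, and all 5 subunits were among the higher in the pooled cells. Within sets, with 42 to 149 non-myeloid cells each, the ratio of means was under 2 for Rac2 in A (1.67), B (1.423) and C (0.796), for Ncf4 in A (1.86) and B (1.68), for Ncf1 in B (1.57) and for Cybb in E (0.753). No level is compared between genes, since a 3′ tag on a score scale does not allow it.

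The catalytic subunit Cybb had a value in 13.4% of the 12734 myeloid cells and in 2.06% of the 534 others, a difference of 11.4 percentage points (9.68 to 12.5). Its mean deposited value was 7.40 times higher in myeloid cells. By gate, Cybb was found in 2.21% of endothelial cells (0.605 to 5.56), 1.48% of oligodendrocytes (0.180 to 5.25) and 1.02% of ependymal cells (0.0258 to 5.55), so that these 3 gates did not differ beyond their intervals.

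Its partner Cyba, which many tissues express, had a value in 59.4% of myeloid cells and 19.1% of the others, a difference of 40.3 points (36.6 to 43.5). Outside the myeloid gate it was highest in endothelial cells at 21.5% (15.8 to 28.3), followed by oligodendrocytes at 14.1% (8.69 to 21.1) and ependymal cells at 9.18% (4.29 to 16.7). Neighbours in this order overlapped in their intervals, but each stood below every myeloid class.

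Of the cytosolic subunits, the organizer Ncf1 was found in 15.1% of myeloid cells and 2.43% of the others (difference 12.7 points, 10.9 to 13.8). Ncf4, which binds phosphoinositides of the phagosome membrane, was found in 7.11% and 2.06% (difference 5.05 points, 3.398 to 6.06). In ependymal cells Ncf4 had a value in 0 of 98 cells (upper limit of the exact interval 3.69%), which limits the share of cells with a value and not of cells that express the gene. The GTPase Rac2, a protein of blood cell lineages, was found in 17.7% and 7.30% (difference 10.4 points, 7.75 to 12.4), but only in 2.76% of endothelial cells, 2.96% of oligodendrocytes and 2.04% of ependymal cells. Rac1, its relative present in most cells, served as a contrast: it had a value in 24.0% of myeloid cells and 28.3% of the others.

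Free RNA in droplets gives values in cells that do not express a gene. Tyrobp, a marker of myeloid and NK cells, had a value in 91.5% of myeloid cells and in 19.3% of endothelial cells, 23.7% of oligodendrocytes and 15.3% of ependymal cells, which should lack it. The median total was 959 in myeloid cells and 1139, 1043 and 1201 in these gates. To set a level for it, 8 further myeloid genes were summed in each gate. They reached 11.6% of their myeloid level in endothelial cells, 11.96% in oligodendrocytes and 8.46% in ependymal cells. Relative to what that ratio gives, the mean of Cybb was 1.25, 0.813 and 0.792 in these gates. These values rested on 4, 2 and 1 cells, so Cybb in these gates could not be told from background. Cyba stood at 1.93, 1.48 and 1.45, and Rac1 at 9.84, 13.4 and 11.6. Ncf1 stood at 0.833, 0.722 and 2.81, Ncf4 at 1.26, 0.818 and 0, and Rac2 at 1.19, 1.54 and 1.20. Each of these rested on 0 to 5 cells per gate, too few to tell from background.

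**Figure D1:**
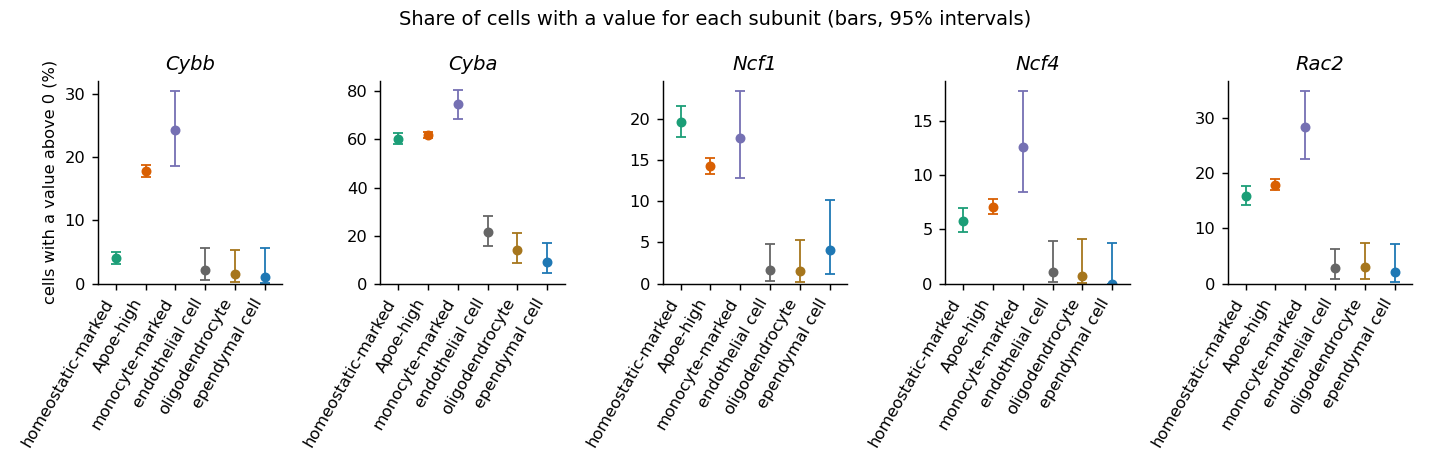
Share of cells with a value above 0 (y axis, percent; scale differs between panels) for each of the 5 subunits in 3 myeloid classes and 3 other gates (x axis). Points are shares in the pooled table and bars exact 95% intervals of counting error; Cybb goes from 3.98% in homeostatic-marked to 17.7% in Apoe-high cells, while all 5 subunits are low in endothelial cells, oligodendrocytes and ependymal cells.

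The sets differed far more in Cybb than in its partners. Among myeloid cells, Cybb had a value in 18.8% of set A, 16.5% of B, 10.7% of C, 0.342% of D, 0.506% of E and 9.36% of F. It was thus nearly missing from D (4 of 1168 cells) and E (5 of 989 cells). The non-myeloid cells of these sets had a Cybb value in 0 of 85 and 1 of 149 cells. With so few cells, Cybb in D and E could not be told from background. Cyba lay between 46.9% and 64.8% in the 6 sets, Ncf1 between 11.5% and 16.7%, Ncf4 between 4.28% and 9.28%, and Rac2 between 10.7% and 22.1%. The highest set exceeded the lowest by 1.38 to 2.17 times for these 4, and for Cybb no ratio is given, since its lowest sets could not be told from background. The median number of genes above 0 in myeloid cells was 641 in A, 546 in B, 406 in C, 485 in D, 481 in E and 521 in F. Its part in the order of the sets in Cybb was not tested. The median Apoe value in myeloid cells was 0 in D and in E, 338 per 10000 in B, 567 in F, 966 in A and 1145 in C.

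The comparison of homeostatic-marked with Apoe-high cells asks how the enzyme varied across myeloid states. Cybb had a value in 70 of 1760 homeostatic-marked cells (3.98%, 3.11 to 4.999) and in 1015 of 5721 Apoe-high cells (17.7%, 16.8 to 18.8), a difference of 13.8 points (12.4 to 15.1). Its mean deposited value was 4.38 times higher in Apoe-high cells (log2 ratio 2.13). Of 3304 genes above 0 in at least 5% of either class, 14.4% were at least 1.5-fold higher in Apoe-high cells and 35.0% at least 1.5-fold lower, with a median log2 ratio of -0.33. Cybb was the 1 subunit of 5 past that fold.

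Cyba did not share this difference: it had a value in 60.3% of homeostatic-marked and 61.9% of Apoe-high cells (difference 1.57 points, -1.02 to 4.19; mean ratio 0.999). Ncf1 went the other way, with 19.7% of homeostatic-marked and 14.3% of Apoe-high cells (difference -5.40 points, -7.51 to -3.38; log2 ratio -0.47). The median log2 ratio over all genes counted was -0.33, so the ratio of Ncf1 lay near that of a typical gene. Ncf4 was found in 5.74% and 7.08% (difference 1.34 points, -0.0054 to 2.55; log2 ratio 0.32). Rac2 was found in 15.9% and 17.9% (difference 2.05 points, 0.0183 to 3.97; log2 ratio 0.26), and without set A its difference turned to -4.06. The subunits of the membrane core, Cybb and Cyba, thus had unequal ratios in the same cells.

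**Figure D2:**
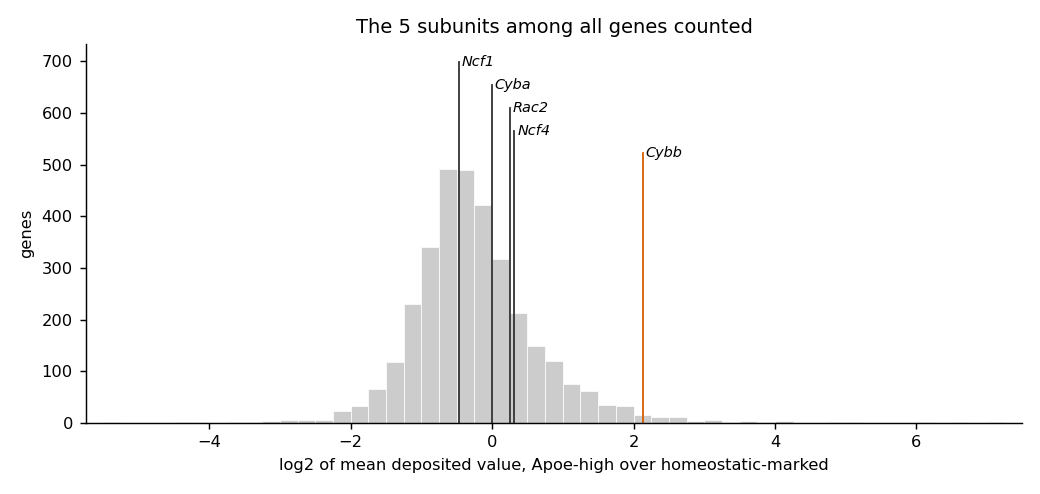
Number of genes (y axis) by the log2 ratio of the mean deposited value in Apoe-high over homeostatic-marked cells (x axis), for the 3304 genes above 0 in at least 5% of either class. Lines mark the 5 subunits: Cybb at 2.13 stands in the right tail, and the others lie between -0.47 and 0.32.

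The classes were unevenly spread over the sets. Of the homeostatic-marked cells, 686 came from D, 565 from E and 352 from B, and D and E held only 2 and 1 Apoe-high cells. Within a set, the difference can be given for A, B, C and F, which held at least 20 cells of both classes. For Cybb it was 16.03 points in A (0.937 to 19.5), 3.90 in B (-2.36 to 10.3), 8.31 in C (-5.52 to 11.7) and 10.7 in F (4.92 to 14.7). All 4 differences were above 0, and the intervals excluded 0 in A and F. A and C held only 26 and 29 homeostatic-marked cells, of which 1 each had a Cybb value. In B, the only set with over 200 cells of each class, Cybb was found in 17.6% of homeostatic-marked and 21.5% of Apoe-high cells. The classes were not equally far apart in Apoe in each set. The median Apoe value of Apoe-high cells was 542 per 10000 in B, 982 in A, 1204 in C and 673 in F. That of homeostatic-marked cells was 191 in B, 348 in A, 395 in C and 142 in F. Its part in the differences within sets was not tested.

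Homeostatic-marked cells themselves thus differed between sets. Cybb was found in 17.6% of those in B (13.8 to 22.0) but in 0.437% of those in D (0.0903 to 1.27), 0.177% of those in E (0.00448 to 0.982) and 1.96% of those in F (0.238 to 6.90). The difference of B from D was 17.2 points (13.5 to 21.5). Ncf1 in the same cells was found in 21.9% in B, 18.2% in D, 19.5% in E and 18.6% in F, with no pair of these sets apart by more than its interval. Rac2 was again higher in B, at 25.9%, than in D, at 13.6% (difference 12.3 points, 7.19 to 17.7), and so was Cyba, at 73.6% against 56.7% (16.9 points, 10.8 to 22.6). The homeostatic-marked cells of B had a median of 661 genes above 0 and those of D of 574. Their median Apoe value was 191 per 10000 in B and 0 in D. The part of gene number and Apoe in these differences was not tested.

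For Ncf1, the difference of Apoe-high from homeostatic-marked cells was -11.1 points in A (-30.3 to 2.15), -11.7 in B (-17.2 to -5.86), -16.7 in C (-34.9 to -3.70) and -5.99 in F (-15.1 to 1.40). It was below 0 in all 4 sets, and the intervals excluded 0 in B and C. Cyba was also below 0 in all 4, from -12.8 points in B (-20.2 to -5.36) to -6.47 in C, against 1.57 in the pooled cells; only in B did the interval exclude 0. Rac2 went from 1.66 points in A to -17.4 in C (-35.6 to -4.43), and Ncf4 from 3.64 in A to -1.30 in C with 0 inside every interval.

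**Figure D3:**
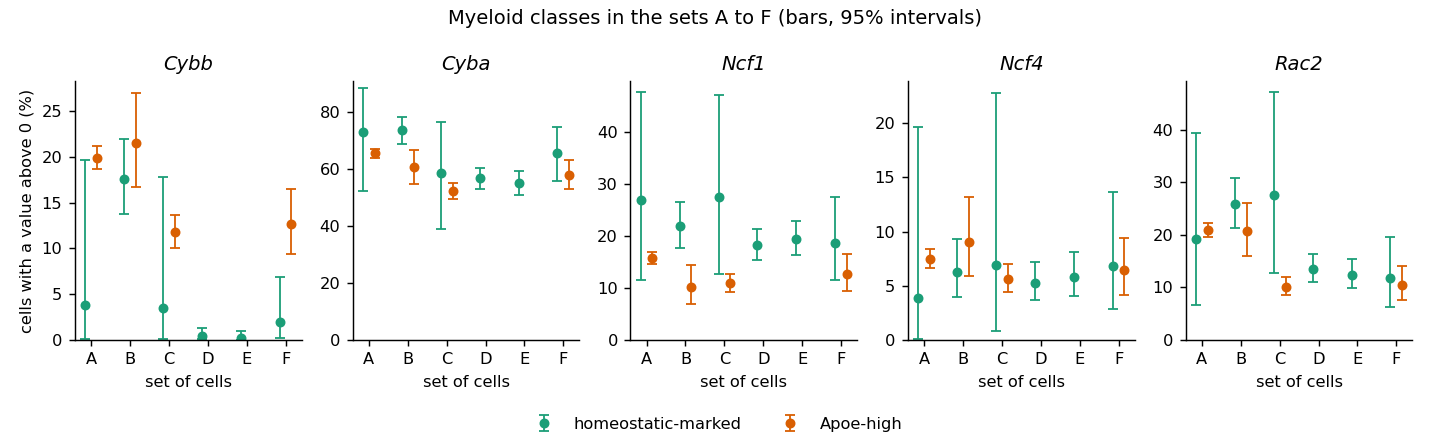
Share of homeostatic-marked and Apoe-high cells with a value above 0 (y axis, percent; scale differs between panels) in the sets A to F (x axis), for each subunit. Points are shares with exact 95% intervals of counting error, and D and E have no point for Apoe-high cells, of which they held 2 and 1; Cybb in homeostatic-marked cells is 17.6% in B and 0.437% in D.

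Other measures moved with the split. Markers of several other cell types that a myeloid droplet could hold were more frequent in Apoe-high cells: the mean number per cell of 8 T cell or NK cell markers was 0.365 against 0.0830 in homeostatic-marked cells, of 8 endothelial markers 0.840 against 0.381, of 8 neutrophil markers 0.482 against 0.330 and of 8 monocyte markers 0.174 against 0.144. In the same order, their summed mean value was 0.380 against 0.0892, 0.9502 against 0.424, 0.535 against 0.376 and 0.186 against 0.159, and no marker of these 4 lists was at 0 in either class. Astrocyte markers (0.342 against 0.364) and neuron markers (0.0603 against 0.0898) were instead less frequent in Apoe-high cells. With only cells that had fewer than 2 markers of every other lineage (3109 Apoe-high and 1365 homeostatic-marked), the difference of Cybb was 12.7 points, and that of Cyba became -3.44 points (-6.53 to -0.312).

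The median number of genes above 0 was 588.5 in homeostatic-marked and 579 in Apoe-high cells, and the subunits were in general found more often in cells with more genes. Within sets these medians were further apart: 544.5 and 649 in A, 661 and 460 in B, 728 and 401 in C, and 517 and 544 in F. The bands of gene number below pool the sets, so the part of gene number in the differences within sets was not tested. At similar numbers of genes from 400 upward, Cybb stayed higher and Ncf1 lower in Apoe-high cells. Below 400 genes, Cybb was found in 2.54% of 197 homeostatic-marked and 9.62% of 1196 Apoe-high cells. Ncf1 did not differ there beyond its intervals, at 8.12% (4.71 to 12.9) and 8.53% (7.01 to 10.3). Among cells with 400 to 600 genes, Cybb was found in 2.36% of homeostatic-marked (1.38 to 3.75) and 14.5% of Apoe-high cells (12.96 to 16.2), and Ncf1 in 15.8% (13.2 to 18.7) and 11.8% (10.3 to 13.3). Among cells with 600 to 800 genes, Cybb was found in 4.90% and 22.8%, and Ncf1 in 22.4% and 18.1%. With every cell thinned at random to a total of 687, an alternative added once the data were known, Cybb was found in 2.73% and 12.1%, and Ncf1 in 12.7% and 9.93%.

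**Figure D4:**
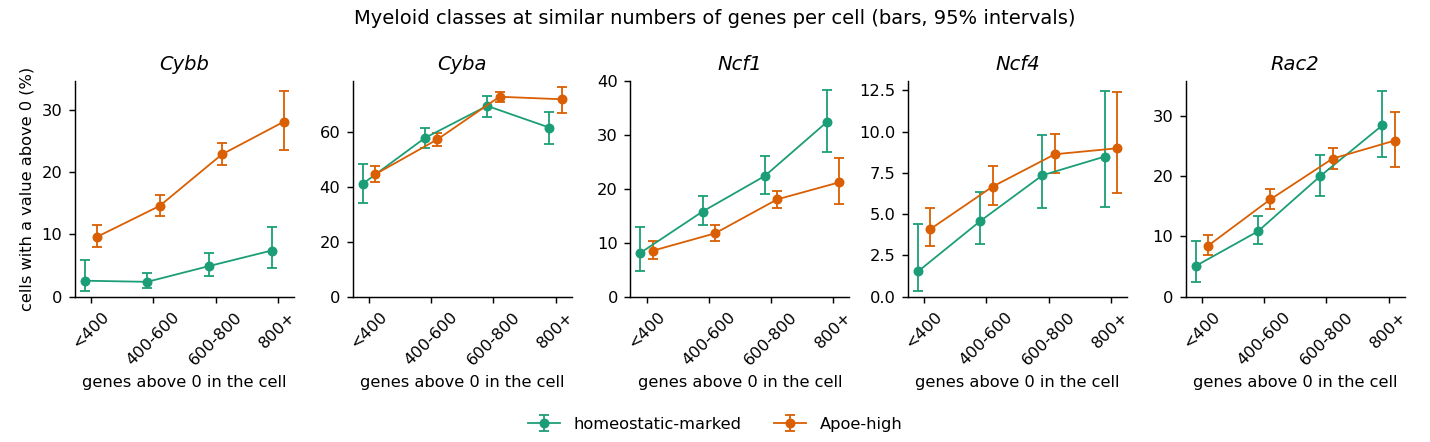
Share of homeostatic-marked and Apoe-high cells with a value above 0 (y axis, percent; scale differs between panels) by the number of genes above 0 in the cell (x axis), for each subunit. Points are shares with exact 95% intervals of counting error; at 600 to 800 genes Cybb is at 4.90% and 22.8%, and Ncf1 at 22.4% and 18.1%.

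Across Apoe itself, the share of myeloid cells with Cybb went from 2.41% below 100 per 10000 to 18.5% at 800 or more. Within set A it went from 2.40% at 100 to 300 (125 cells, median 503 genes) over 9.82% and 13.5% to 20.8% at 800 or more (3576 cells, median 660 genes). Within C it went from 4.67% at 100 to 300 to 11.8% at 800 or more, while the median number of genes went from 560 down to 401. Within B it went from 13.8% below 100 to 19.7% at 500 to 800, and within F from 2.82% below 100 to 12.9% at 500 to 800 and then 7.94% at 800 or more (63 cells). In D and E, where nearly all myeloid cells lay below 100, it was 0.262% and 0.412%. Ncf1 showed no such order over all sets: it went from 9.60% at 100 to 300 to 16.3% at 800 or more in A, but from 21.0% below 100 to 10.0% at 500 to 800 in B.

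**Figure D5:**
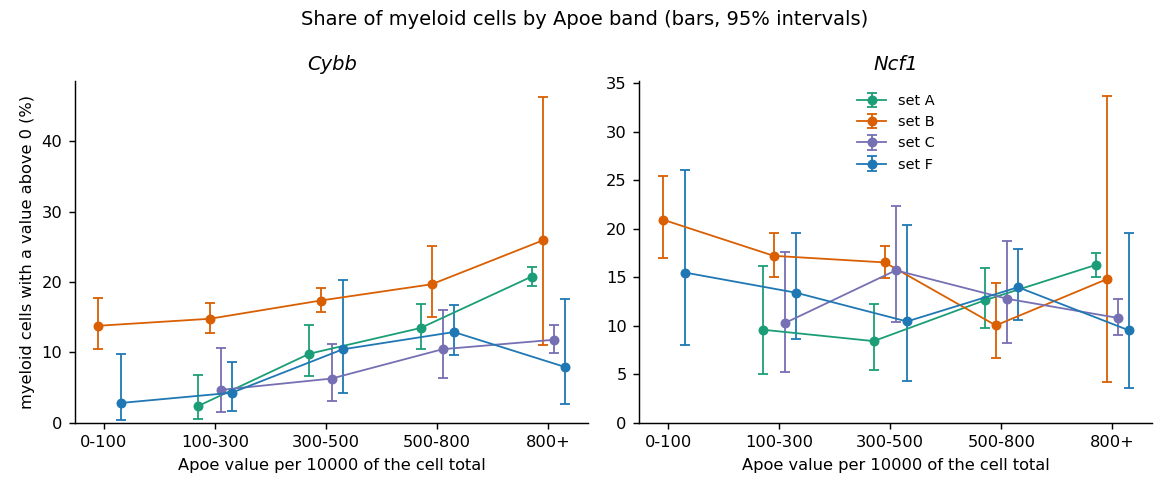
Share of myeloid cells with a value above 0 for Cybb (left) and Ncf1 (right) (y axis, percent) by the Apoe value per 10000 of the cell total (x axis), in the sets A, B, C and F. Points are shares with exact 95% intervals of counting error; Cybb in set A goes from 2.40% to 20.8%, whereas Ncf1 in set B goes from 21.0% to 10.0% between the lowest band and 500 to 800.

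The number of homeostatic markers gave a similar order for Cybb in the pooled cells, from 14.9% of myeloid cells with none to 1.05% of those with 5 or more. Within set B, however, Cybb was found in 16.6% of cells with none, 16.1% with 1, 16.6% with 2 and 19.6% with 3 markers, and in A in 17.0%, 20.2%, 20.2% and 21.3%. Over these steps A and B did not show the order of the pooled cells, and lower shares came with 4 markers in A (8.82% of 34 cells) and with 5 or more in B (6.98% of 43 cells). Set C did show it, with 11.6%, 10.98%, 6.49%, 6% and 4.17% of cells with 0 to 4 markers (24 cells at the last step), and F went from 7.73% with none and 15.4% with 1 to 2.86% with 5 or more.

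Myeloid cells with at least 3 of 8 monocyte markers (Ly6c2, Ccr2, Plac8, Clec4n, F10, Arg1, Chil3 and Ms4a4c) numbered 215, of which 211 came from set B. Cybb was found in 24.2% of them (18.6 to 30.5), Cyba in 74.9%, Ncf1 in 17.7%, Ncf4 in 12.6% and Rac2 in 28.4%. All 215 were set against the other 3616 myeloid cells of B. The differences were 8.20 points for Cybb (2.82 to 14.5), 10.6 for Cyba (4.25 to 16.2), 6.61 for Rac2 (0.837 to 13.1), 3.46 for Ncf4 (-0.448 to 8.63) and 1.03 for Ncf1 (-3.66 to 6.80). With only the 211 cells of B, they were 8.66, 10.2, 6.20, 3.22 and 1.36 in the same order. The median number of genes above 0 was 650 in the 215 monocyte-marked cells and 546 in all myeloid cells of B. The part of gene number in these differences was not tested. Then the 186 monocyte-marked cells of B that met neither condition of the myeloid split were taken. They were set against 341 homeostatic-marked cells of B with fewer than 3 monocyte markers. Monocyte-marked cells that were Apoe-high were thus left out. Ncf4 was the 1 subunit whose interval excluded 0 (6.74 points, 1.64 to 12.7).

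In the myeloid gate, 1136 cells (8.92%) also had at least 3 markers of another lineage. Doublets were not called, so an alternative added once the data were known put these cells into that other lineage. It gave 87 neutrophil-marked cells, of which 79 had been in the myeloid gate, and 113 T cell- or NK cell-marked cells, of which 73 had been. The median number of genes above 0 was 669 in the former and 715 in the latter, against 533 in the remaining myeloid cells. Its part in the differences given below was not tested. Neutrophils are rich in this enzyme. In the neutrophil-marked cells Cybb was found in 24.1%, Ncf1 in 26.4% and Ncf4 in 19.5%, which was above the remaining myeloid cells by 11.02 points (3.22 to 21.0), 11.4 points (3.26 to 21.6) and 12.6 points (5.63 to 22.2). Within sets, Ncf4 was found in 37.5% of 24 such cells of B but 13.6% of 44 such cells of A, Ncf1 in 33.3% and 18.2%, and Cybb in 25% and 29.5%, with overlapping intervals. Cyba and Rac2 differed by 5.22 (-5.29 to 14.5) and 5.56 points (-2.05 to 15.5). The summed reference genes of myeloid cells were at 83.6% of their myeloid level in these cells, so that these cells also carried myeloid transcripts.

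In the T cell- or NK cell-marked cells Rac2 stood apart. It was found in 45.1% of them (35.8 to 54.8) and in 17.4% of the remaining myeloid cells, a difference of 27.7 points (18.8 to 36.9), and its mean was 5.65 times what the myeloid reference genes give. Within sets, Rac2 was found in 57.9% of 38 such cells of B and 29.1% of 55 such cells of A. Cybb, Cyba, Ncf1 and Ncf4 differed from the remaining myeloid cells by -3.39 (-7.65 to 3.50), -8.71 (-17.8 to 0.390), -2.63 (-7.54 to 4.73) and 3.70 points (-0.769 to 10.7).

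Few cells had values for many subunits together. Of homeostatic-marked cells 26.3% had at least 2 of the 5 and of Apoe-high cells 33.0%, against 52.1% of monocyte-marked and 5.62% of non-myeloid cells. All 5 had a value in 4 of 12734 myeloid cells. Among Apoe-high cells, those with a Cybb value had Cyba in 66.0% and those without in 61.0%, at median gene numbers of 659 and 557. For Ncf1 these shares were 15.2% and 14.1%, and for Ncf4 7.59% and 6.97%. The number of genes moved with these shares, and its part was not tested.

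Of 25 other genes of the oxidase, listed with earlier results of these data known, 19 had a row and 17 were above 0 in at least 5% of either myeloid class. None was at least 1.5-fold higher in Apoe-high cells and 10 were at least 1.5-fold lower, with a median log2 ratio of -0.63, against 14.4% and 35.0% of all genes and a median of -0.33. Cybc1, a chaperone for gp91phox and p22phox, was found in 5.45% and 3.65% (log2 ratio -0.60). The proton channel Hvcn1, which offsets the charge that the oxidase moves, was found in 8.13% and 8.81% (log2 ratio 0.11). Nox1 and Noxo1, of a related epithelial oxidase, were found in 0.341% or less and 0.839% or less of these cells.

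Among the upstream signalling and switch proteins, 6 of 11 were at least 1.5-fold lower in Apoe-high cells, against 35.0% of all genes counted. Over all genes counted the median log2 ratio was -0.33. The phosphoinositide 3-kinase subunit Pik3cg had a log2 ratio of -1.91, the kinase Pak1 of -0.91, the Rac exchange factor Prex1 of -0.84, the GDP-dissociation inhibitor Arhgdib of -0.72, the kinase Syk of -0.64 and the phospholipase Plcg2 of -0.63. Rac1 had a log2 ratio of -0.76 and was found in 33.6% of homeostatic-marked and 21.6% of Apoe-high cells. Within sets these directions did not all hold. In A, with 26 homeostatic-marked cells, Rac1 was found in 19.2% of homeostatic-marked and 23.2% of Apoe-high cells, Arhgdib in 23.1% and 30.5%, and Syk in 0 cells and 5.35%. In B, Syk was found in 4.83% and 4.91%, whereas Rac1 was at 32.7% and 17.0% and Arhgdib at 40.9% and 30.9%. The exchange factor Vav1 and the protein kinases Prkcd and Prkcb, with log2 ratios of -0.33, -0.34 and -0.15, were not past the fold.

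The transcription factors Spi1 (PU.1) and Irf8, both known activators of Cybb, were lower in Apoe-high cells. Of all genes counted, 35.0% were at least 1.5-fold lower there, with a median log2 ratio of -0.33. Spi1 was found in 30.8% of homeostatic-marked and 14.9% of Apoe-high cells (log2 ratio -1.21) and Irf8 in 31.1% and 18.4% (log2 ratio -0.86). The same direction was seen within each set that could be compared. Spi1 was at 33.2% and 16.2% in B and 33.3% and 13.2% in F. It was at 34.5% and 11.5% in C and 19.2% and 16.1% in A, which held only 29 and 26 homeostatic-marked cells. The part of gene number in these differences was not tested. In D and E, Spi1 was found in 30.0% and 30.1% of homeostatic-marked cells and Irf8 in 30.5% and 29.6%. The part of these factors in the Cybb values was not tested.

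Finally, each subunit was compared with 3828 genes by the Pearson correlation of log2(mean deposited value + 0.01) over 6 classes (homeostatic-marked, Apoe-high, other myeloid, endothelial, oligodendrocyte and ependymal cells). These points come from 1 pooled table and share its free RNA, so the correlations are descriptions. In the endothelial, oligodendrocyte and ependymal classes, Cybb, Ncf1, Ncf4 and Rac2 could not be told from background. The values thus largely restate the lineage and myeloid splits given above. Picked from 3828 genes over 6 points, the highest values are high in part by selection. Cybb was most like Cst7 (0.993), H2-Eb1 (0.992), C3 (0.991), Ccl5 (0.988) and H2-Ab1 (0.986). Ncf1 was most like Gng2 (0.998), Vav1 (0.997), Pag1 (0.994), Adgre1 (0.992) and Plek (0.992). Cyba was most like Csf3r, Syngr1, H2-DMa, Tbxas1 and Itgb2 (0.997 to 0.993), Ncf4 like Cxcl16, Cyba, Ifi30, Csf3r and Myo1f (0.997 to 0.987), and Rac2 like Cd52, Epsti1, Bcl2a1b, Ctsz and Tyrobp (0.998 to 0.991). Among the subunits, Cybb and Ncf1 had the lowest correlation with each other (0.772), and Cyba and Ncf4 the highest (0.991).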

How the data were processed

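Single cells of mouse spinal cord were profiled in 6 libraries with the 10x Genomics 3′ v2 protocol, per the labels. Per the labels and the methods of the study, the authors used Cell Ranger 7.1.0 to align reads, introns among them, to GRCm38 (Ensembl), and Seurat 4.3.0.1 to combine and filter the libraries. The deposited values are a score that the authors made from these combined and filtered cells: whole numbers, with narrow totals per cell, that were not taken as UMI counts. How they were made is not given in the sources used here. Depth is therefore unknown, and no count model was fitted.

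All 13614 cells were used, and no cell could be tied to a library, so no group was compared. Cells were gated, shares computed, and fold changes taken from mean deposited values in Python 3.11.15 with numpy 2.4.6 and scipy 1.17.1. A gene was counted in a comparison when above 0 in at least 5% of either class, and classes under 50 cells were not described, except where an alternative or a set is named. Means per 10000 of the cell total were an alternative. Fold changes were tested on simulated data. The stated filters, measured on the deposited values, kept 12556 cells and were an alternative, as were other marker numbers, other Apoe limits, cells with 400 to 800 genes and leaving out each set. The subunits, lists, gates and tests were chosen with earlier results of these data known. All 5 subunits were named, other oxidase genes by list (1 of them is not reported here by name), and the 5 most similar genes of each by correlation among genes above 0 in at least 10% of some class.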

Additional observations from a re-analysis of the deposited data

How the results depend on the processing

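All values are differences in percentage points, Apoe-high minus homeostatic-marked cells unless stated. Over 17 alternatives, Cybb stayed above 0 (9.37 to 17.0) and Ncf1 below 0 (-8.44 to -2.74), Ncf4 above 0 (0.392 to 2.25), whereas Cyba was above 0 in 13 and below in 4, and Rac2 above 0 in 16 and below in 1. Leaving out each set in turn gave 9.37 (without A) to 17.0 (without B) for Cybb, -5.59 (without A) to 4.94 (without B) for Cyba, -8.44 (without A) to -4.33 (without C) for Ncf1, and -4.06 (without A) to 4.41 (without B) for Rac2, whose direction turned. With 400 to 800 genes per cell, Cybb was at 15.7 and Rac2 at 5.08. With 2 or 4 homeostatic markers needed, Cybb was at 11.8 or 15.8. With fewer than 2 markers of every other lineage, Cyba was at -3.44. After thinning, Cybb was at 9.40 and Ncf1 at -2.74.

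The difference of myeloid from other cells stayed above 0 for each subunit over 13 alternatives. Leaving out each set gave 8.73 (without A) to 12.3 (without D) for Cybb and 36.5 (without E) to 42.6 (without C) for Cyba. With 400 to 800 genes it was 13.7 for Cybb, 45.1 for Cyba, 14.3 for Ncf1 and 6.50 for Ncf4. With fewer than 2 markers of every other lineage, Cyba was at 43.9, Ncf1 at 13.9 and Rac2 at 7.07. After thinning, Cybb was at 8.35, Cyba at 34.4, Ncf1 at 9.02 and Rac2 at 7.72. With cells that had 3 markers of another lineage put there, it shrank to 2.10 for Cybb, 12.5 for Cyba, 3.83 for Ncf1, 0.379 for Ncf4 (-0.957 to 1.55) and 1.75 for Rac2 (-0.154 to 3.53); by construction that class then held cells from the myeloid gate. The cause of the other moves was not tested. Thinning and this gate were added once the data were known.

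With values per 10000 of the total without Apoe, log2 ratios of Cyba, Ncf1, Ncf4 and Rac2 moved to 0.25, -0.25, 0.58 and 0.52. Counting genes above 0 in at least 1% of cells put 22.1% of genes past 1.5-fold higher. No paired analysis was possible because nothing links a cell to its library or replicate, and no test was run.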
